A study of Mus musculus with 4 samples.

Results

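The genes described here are 10 mouse genes that hepatocytes around the central vein of the liver lobule express under WNT control: Glul, Oat, Slc1a2, Rhbg, Cyp2e1, Cyp1a2, Axin2, Lgr5, Tbx3 and Lect2. They were taken as a named list from the 55487 gene identifiers of the deposited tables, each symbol matched 1 identifier, and all 10 passed the filter on low counts that left 14411 genes for testing. RNA-seq of polyadenylated liver RNA was available for 2 PA mice, labelled hypomorphic Pcca-/- (A138T), and 2 WT mice. All 4 animals were females of 11 weeks on an FVB background, fed standard chow. The product of Pcca is part of the carboxylase that clears propionyl-CoA in mitochondria, and the series title places the comparison in a study of histone H4 acylation and transcription under metabolic perturbation. Each library came from bulk frozen liver tissue, so fewer cells of a type and less RNA per cell cannot be told apart. They do not say in which cells the altered protein is made.

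Liver lobules are zoned. Endothelial cells of the central vein secrete WNT ligands and R-spondins, beta-catenin enters the nucleus of the neighbouring hepatocytes, and there it works with TCF/LEF factors bound to DNA. The pericentral hepatocytes make glutamine from ammonia and carry much of the cytochrome P450 activity of the liver, while periportal hepatocytes run the urea cycle.

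None of the 10 genes differed between PA and WT livers past the threshold of an adjusted p of 0.05 (edgeR quasi-likelihood test with Benjamini-Hochberg adjustment over all tested genes). DESeq2 and limma-voom likewise called 0 of the 10. Over all 14411 genes edgeR called 0.812% (0.264% higher and 0.548% lower in PA), DESeq2 3.07% (1.29% higher, 1.78% lower) and limma-voom 0.604% (0.194% higher, 0.409% lower). At an unadjusted p under 0.05 edgeR had 1 of the 10, Cyp1a2, which was higher in PA; of all genes 11.8% were under that p, 5.88% higher and 5.93% lower. The fitted values were positive for 5 of the 10 genes, against 50.6% of all genes, with a median log2 fold change of 0.03 against 0.005 over all tested genes. Their median absolute log2 fold change was 0.36, against 0.26 over all tested genes. Tests with 2 mice per group are weak at such sizes. In simulated counts for the 14411 genes of PA against WT, the same test recovered 4.67% of changes of 0.5 (log2), 38.7% of changes of 1 and 89.3% of changes of 2. A gene that was not called is therefore not shown to be equal in the 2 genotypes.

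TCF/LEF factors recognise DNA around the core letters TCAAAG, and these letters were searched on both strands in RefSeq windows from 250 bases before to 50 bases after the start of each gene (GRCm38.p6). Of the 10 genes 7 had a window; Rhbg, Lgr5 and Tbx3 had none in the table. The core was in the windows of 4 of the 7, and in 16.0% of 32851 windows of all genes. The longer form ATCAAAGG, which contains the core, was in 2 of the 7, Lect2 and Slc1a2, and in 1.07% of all windows. The share of G and C was 45.7% (Slc1a2), 48.0% (Lect2) and 49.7% (Cyp2e1 and Cyp1a2) in the windows with a core. It was 61.7% (Oat), 64.3% (Glul) and 70.0% (Axin2) in those without. The windows of all genes were not matched for this share, so the percentages do not measure an enrichment. The genes were listed as WNT-dependent, so a TCF/LEF match is not independent of the choice of the list. The stretches that carry a match are shown with the matching letters in capitals, read 5′ to 3′ on the strand of the gene.
Lect2 (chr13:56548549-56548584, minus strand): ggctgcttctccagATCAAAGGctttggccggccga
Slc1a2 (chr2:102706217-102706252, plus strand): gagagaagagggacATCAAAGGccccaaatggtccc
Slc1a2 (chr2:102706347-102706380, plus strand): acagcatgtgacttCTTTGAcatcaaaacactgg
Cyp2e1 (chr7:140763670-140763703, plus strand): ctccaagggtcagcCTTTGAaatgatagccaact
Cyp1a2 (chr9:57683879-57683905, minus strand): tattcttTCAAAGacatataccttggc
Positions count back from the RefSeq start, which for Slc1a2 lies inside the longer gene model of GENCODE. The match of Lect2 began 32 bases before the start of the gene, those of Slc1a2 began 207 and 77 bases before it, that of Cyp2e1 135 bases and that of Cyp1a2 243 bases. CTTTGA is the core read on the other strand. The windows of Glul, Oat and Axin2 held no core, which says only that these letters were not in these 300 bases. Of the 4 genes with a core, Cyp1a2 and Cyp2e1 had positive fitted values and Slc1a2 and Lect2 negative ones.

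By GENCODE M21 (GRCm38) all 10 are protein-coding genes. The ammonia and glutamate genes are Glul (ENSMUSG00000026473, chr1:153899944-153909723, plus strand), Oat (ENSMUSG00000030934, chr7:132557478-132576398, minus), Slc1a2 (ENSMUSG00000005089, chr2:102658659-102790784, plus) and Rhbg (ENSMUSG00000104445, chr3:88242874-88254709, minus). The P450 genes are Cyp2e1 (ENSMUSG00000025479, chr7:140763739-140774987, plus) and Cyp1a2 (ENSMUSG00000032310, chr9:57676937-57683703, minus). The others are Axin2 (ENSMUSG00000000142, chr11:108920349-108950783, plus), Lgr5 (ENSMUSG00000020140, chr10:115450311-115587780, minus), Tbx3 (ENSMUSG00000018604, chr5:119670669-119684724, plus) and Lect2 (ENSMUSG00000021539, chr13:56542464-56548502, minus). Glul, Oat and Rhbg each overlap another gene model on the same strand, so reads in the overlap may be missing from their counts.

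Transcript levels per length, in TPM (transcripts per 1000000) as deposited, ranged widely between the genes. Cyp2e1, the P450 that oxidises ethanol and acetaminophen, was the most abundant, with 1591 and 2661 TPM in PA livers and 1649 and 2424 TPM in WT livers. It made up 67.4 and 67.5% of the summed TPM of the 10 genes in PA livers and 54.4 and 66.5% in WT livers. Oat averaged 406 TPM over the 4 libraries, Lect2 322, Glul 221 and Cyp1a2 178, and the ranges of neighbours in this order overlapped. Lect2 nevertheless exceeded Glul in 4 of 4 libraries. Slc1a2 followed at 28.6 TPM. Tbx3, Rhbg, Axin2 and Lgr5 lay lowest, at means of 2.22, 1.95, 1.12 and 1.04 TPM with overlapping ranges. The ranges of Cyp2e1 and Oat, of Cyp1a2 and Slc1a2, and of Slc1a2 and Tbx3 did not overlap.

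**Figure D1:**
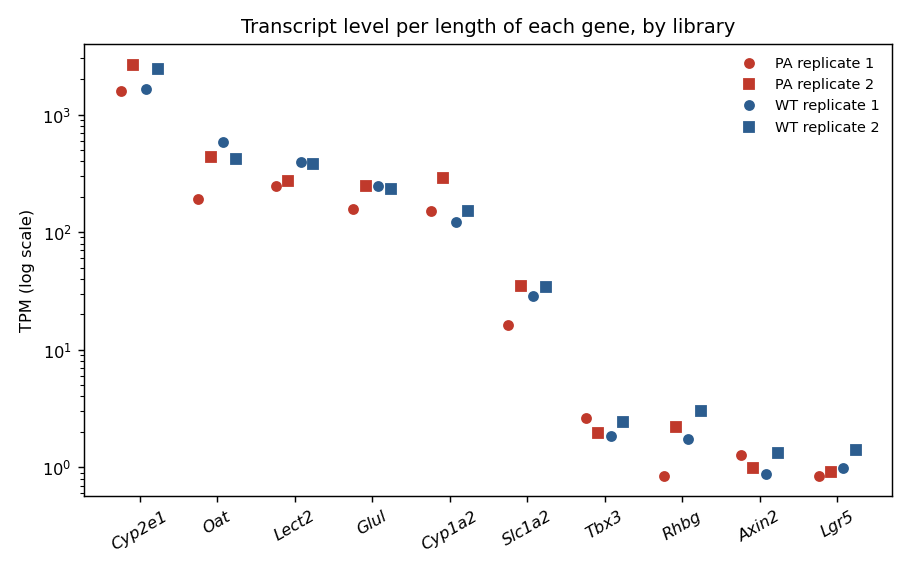
Transcript level of each gene in TPM on a log scale, ordered by the mean of the 4 libraries, with PA libraries in red and WT libraries in blue. Cyp2e1 stands above the rest at 1591 to 2661 TPM, and Tbx3, Rhbg, Axin2 and Lgr5 lie between 0.85 and 2.99 TPM.

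The ammonia and glutamate genes came first in the comparison of genotypes. Levels between libraries are given in CPM, counts per 1000000 of the TMM-scaled library size. TPM as deposited has no such scaling. The mitochondrial genome held 20.7 and 17.1% of TPM in PA livers and 10.6 and 11.7% in WT livers. Comparisons of TPM between genotypes carry that difference. Glul encodes glutamine synthetase, which condenses glutamate and ammonia and marks the innermost ring of hepatocytes. Glul was at 451 and 574 CPM in PA livers and at 530 and 534 CPM in WT livers. Both WT values lay between the PA values. The fit gave a log2 fold change of -0.05 ± 0.25 (SE; edgeR adjusted p = 0.960), and the 95% interval of the fit ran from 0.643-fold to 1.44-fold of WT.

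Oat, ornithine aminotransferase, turns ornithine into a precursor of glutamate and proline. It had 457 and 819 CPM in PA livers against 1031 and 777 CPM in WT livers. PA replicate 1 was the lowest of the 4 libraries, while PA replicate 2 lay above WT replicate 2. The fitted log2 fold change of -0.50 (standard error 0.34, edgeR adjusted p = 0.635) was -0.99 when PA replicate 2 was left out and -0.14 when PA replicate 1 was, so its size depended on which PA liver was kept.

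Slc1a2, the glutamate transporter known as GLT-1, is found in the same perivenous cells as glutamine synthetase. Its values were 70.5 and 93.6 CPM in PA livers and 101 and 140 CPM in WT livers. The PA values were below both WT values. The difference of -0.56 on the log2 scale (standard error 0.26) did not pass the test, with an edgeR unadjusted p of 0.0663 and an adjusted p of 0.467. With 1 library left out it was -0.29 (WT replicate 2), -0.36 (PA replicate 1) or -0.78 (each of the others). Per length the groups overlapped, at 16.2 and 34.9 TPM in PA livers against 28.7 and 34.5 TPM in WT livers. The transcript length that RSEM assigned to Slc1a2 also varied, at 3881 and 2942 bases in PA livers and 4136 and 4584 bases in WT livers, and TPM divides by that length.

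Rhbg, a membrane transporter of ammonium, had few counts from STAR. It had 6 and 20 counts in PA livers and 15 and 9 counts in WT livers, which is 0.236 and 0.673 CPM in PA against 0.489 and 0.353 CPM in WT. The lowest and the highest value were both in PA livers, and the interval of the fit reached from 0.409-fold to 2.90-fold. Rhbg shares its strand and position with the gene model Gm38392, so reads there can be left out as ambiguous by STAR. RSEM, which shares such reads out, gave 39.2 and 95.3 expected counts in PA livers against 72.6 and 110.0 in WT livers, and its fitted log2 fold change was -0.46 where that of the STAR counts was 0.12. The level of Rhbg is therefore uncertain.

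**Figure D2:**
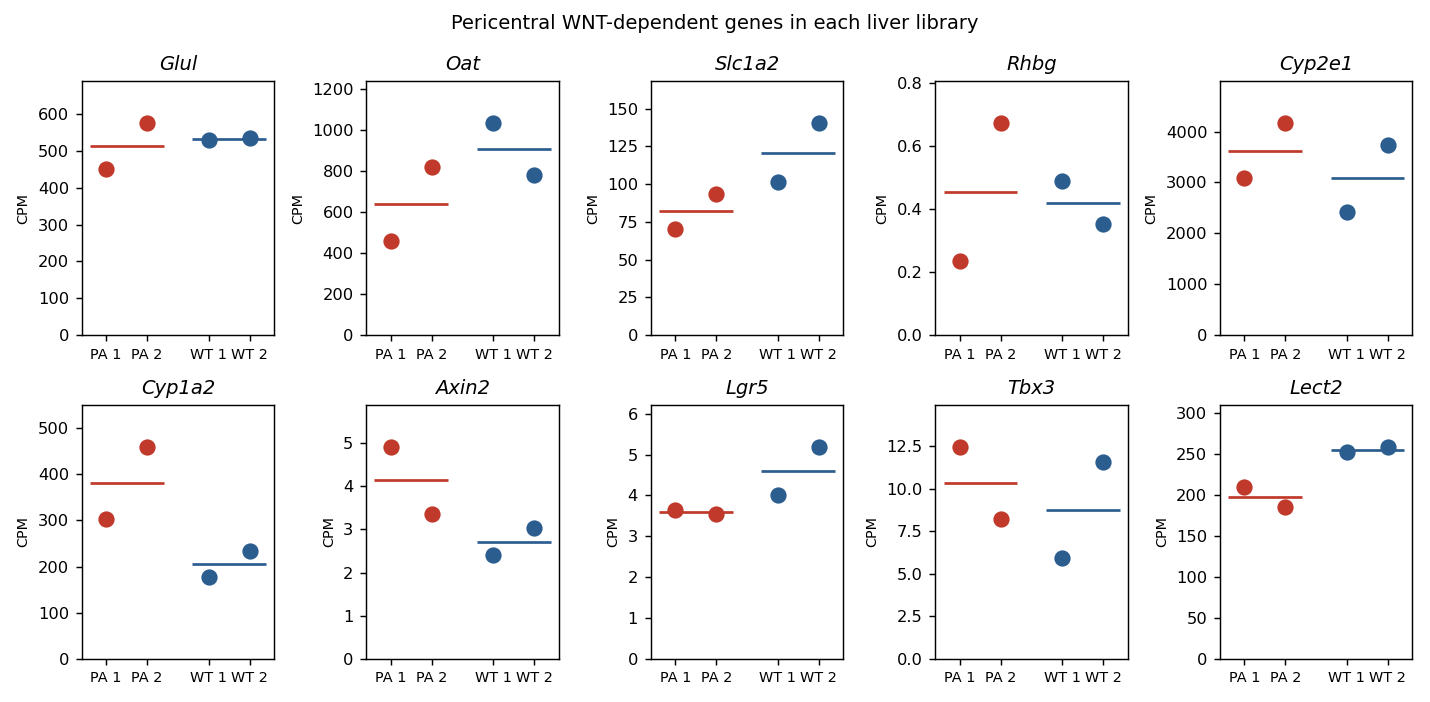
CPM of each gene in the 4 liver libraries, each panel with its own axis from 0; points are libraries and horizontal lines are group means (n = 2 each). PA and WT points do not overlap for Slc1a2, Cyp1a2, Axin2, Lgr5 and Lect2, and they overlap for Glul, Oat, Rhbg, Cyp2e1 and Tbx3.

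Among the cytochrome P450 genes, Cyp1a2 had the largest fitted difference of the 10 genes. Its product metabolises caffeine and aromatic amines, and its gene answers to the aryl hydrocarbon receptor as well as to WNT. Cyp1a2 was at 303 and 459 CPM in PA livers and at 177 and 234 CPM in WT livers. Both PA values exceeded both WT values. The log2 fold change was 0.89 ± 0.29 (SE), or 1.85-fold with a 95% interval of 1.15-fold to 2.99-fold. The unadjusted edgeR p was 0.0184 and the adjusted p 0.288, so it was not called, and DESeq2 gave an adjusted p of 0.0949. It was called without the filter on low counts (adjusted p = 0.0448) and without PA replicate 1 (log2 fold change 1.17, adjusted p = 0.0428), a fit that takes the spread from the WT pair alone; without PA replicate 2 it was 0.56 (adjusted p = 0.257), and without WT replicate 1 and 2 it was not called (adjusted p = 0.999 and 0.589). Per length Cyp1a2 had 153 and 287 TPM in PA against 123 and 151 TPM in WT, with the lower PA value next to the higher WT value. These TPM values are not TMM-scaled.

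Cyp2e1 had 3095 and 4162 CPM in PA livers and 2422 and 3740 CPM in WT livers. Each genotype held 1 library above and 1 below the middle of the range, and the groups overlapped. The fitted difference was 0.24 ± 0.33 on the log2 scale (SE, edgeR adjusted p = 0.843).

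The genes of the WNT pathway itself are Axin2 and Lgr5. Axin2 is a scaffold of the complex that destroys beta-catenin and is induced by the pathway as a feedback brake. It had 125 and 100 counts in PA livers and 74 and 77 counts in WT livers, or 4.91 and 3.37 CPM in PA against 2.41 and 3.02 CPM in WT. The PA values were above the WT values, by a narrow gap between PA replicate 2 and WT replicate 2. The fitted difference was 0.60 ± 0.30 on the log2 scale (SE, edgeR adjusted p = 0.506), and its 95% interval ran from 0.926-fold to 2.50-fold. It lay between 0.32 (without PA replicate 1) and 0.85 (without PA replicate 2) in the fits that each left out 1 library. Per length the groups overlapped, at 1.26 and 0.99 TPM in PA against 0.88 and 1.33 TPM in WT, with RSEM lengths of 3594 and 3472 bases in PA and 3236 and 2835 bases in WT.

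Lgr5 encodes a receptor for R-spondins that strengthens WNT signals. It was at 3.65 and 3.53 CPM in PA livers against 4.01 and 5.18 CPM in WT livers. Both PA values lay below both WT values, the opposite side from those of Axin2. For Lgr5 the fit gave -0.35 ± 0.26 (SE, edgeR adjusted p = 0.665), with -0.54 without WT replicate 1 and -0.15 without WT replicate 2.

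Tbx3, a T-box transcription factor and target of beta-catenin, ranged widely within both genotypes. It had 12.4 and 8.24 CPM in PA livers and 5.93 and 11.5 CPM in WT livers. The WT libraries alone differed by 0.96 on the log2 scale. The difference between genotypes was 0.25 (standard error 0.36, edgeR adjusted p = 0.851).

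Lect2, a protein that hepatocytes secrete into blood and a beta-catenin target in liver, had groups that did not overlap. It was at 209 and 185 CPM in PA livers and at 252 and 258 CPM in WT livers. Both PA values were below both WT values, and in TPM, which is not TMM-scaled, as well, at 245 and 271 TPM in PA livers against 393 and 381 TPM in WT livers. The log2 fold change of -0.37 (standard error 0.22) had an edgeR unadjusted p of 0.133 and an adjusted p of 0.575. It stayed between -0.46 and -0.29 in the 4 fits that each left out 1 library.

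**Figure D3:**
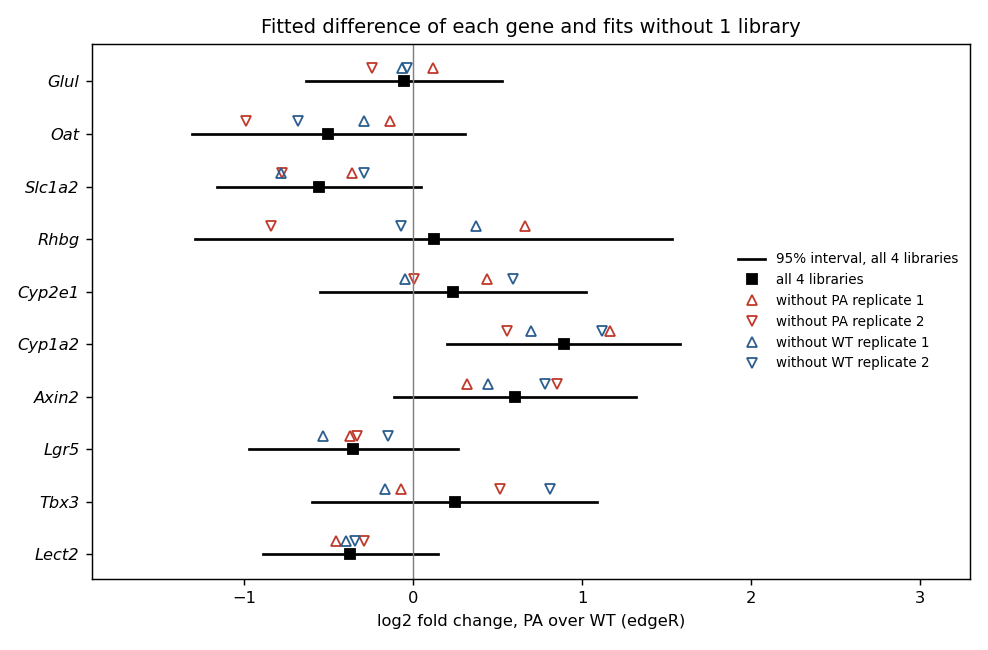
Log2 fold change of PA over WT for each gene with its 95% interval from all 4 libraries (black) and from fits without 1 library (open triangles). The interval spans 0 for 9 of 10 genes, all but Cyp1a2, and the fits without 1 library lie on both sides of 0 for Glul, Rhbg, Cyp2e1 and Tbx3.

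In 5 of the 10 genes the PA and WT values did not overlap, Cyp1a2 and Axin2 with higher and Slc1a2, Lgr5 and Lect2 with lower values in PA livers. With 2 libraries per group this was common, at 43.2% of all tested genes, so the share among the 10 genes was near the background. By direction, 21.3% of all genes lay higher in PA without overlap and 21.9% lower. Both P450 genes had positive fitted values, as had Axin2 and Tbx3, while Glul, Oat and Slc1a2 of the ammonia and glutamate genes had negative ones and Rhbg a positive one.

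Differences within a genotype were as large as those between genotypes for most of the genes. The PA livers differed from each other by more than PA differed from WT for 5 genes, the WT livers did so for 4, and for 6 genes at least 1 of the pairs did. The share of all tested genes for which this held was not computed. Median absolute log2 differences of the 10 genes were 0.49 (PA pair), 0.40 (WT pair) and 0.36 (PA over WT). Over all tested genes they were 0.34, 0.22 and 0.26. A ratio of 2 single libraries also varies more than a ratio of group means. Whether these counts set the 10 genes apart cannot be told without the share over all tested genes. The 4 genes with neither were Cyp1a2, Slc1a2, Axin2 and Lect2. PA replicate 1 was lower than PA replicate 2 for 6 genes, Glul, Oat, Slc1a2, Rhbg, Cyp2e1 and Cyp1a2, that is for each of the ammonia, glutamate and P450 genes, by 0.35 to 1.51 on the log2 scale. It was higher for Axin2, Lgr5, Tbx3 and Lect2, by 0.05 to 0.59. The median of PA replicate 1 over PA replicate 2 was -0.38 for the 10 genes and 0.003 over all tested genes, and that of WT replicate 1 over WT replicate 2 was -0.35 against 0.0008. Replicates have no order, and these values describe single mice.

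**Figure D4:**
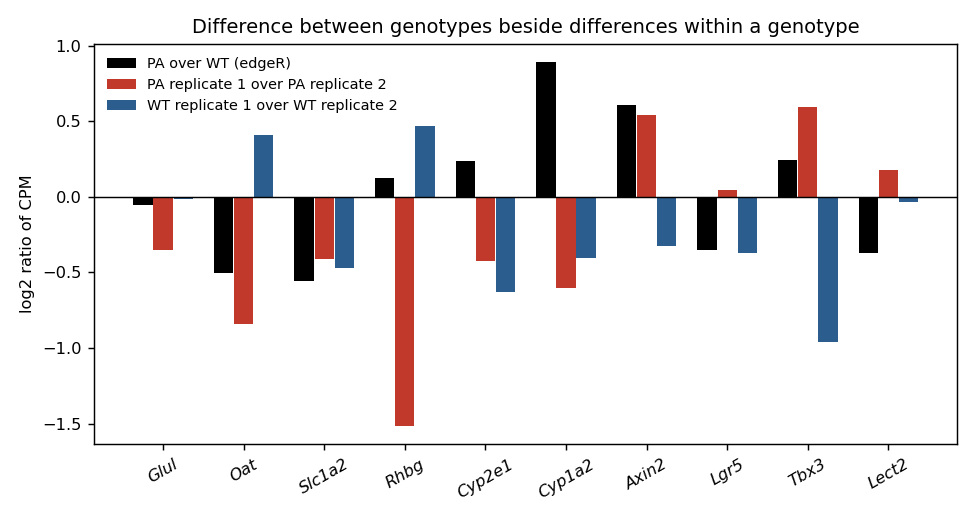
Log2 ratios of CPM for each gene: PA over WT from edgeR (black), PA replicate 1 over PA replicate 2 (red) and WT replicate 1 over WT replicate 2 (blue). For Oat, Rhbg, Cyp2e1, Tbx3, Glul and Lgr5 a bar within a genotype is longer than the bar between genotypes.

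Libraries held 25990553 and 30110400 gene counts in PA livers and 29627033 and 25575016 in WT livers. Pcca had 34.2 and 47.4 CPM in PA livers and 60.3 and 58.9 CPM in WT livers (log2 fold change -0.55, edgeR adjusted p = 0.398); a gene count does not tell a mutant from a normal transcript and is a limited check of the labels. The PA libraries stood far apart on the second principal component of log CPM, at 31.0 and -39.2, against -0.57 and 8.83 for WT, and the share of counts from the mitochondrial genome was 13.6 and 8.98% in PA and 6.90 and 7.38% in WT. All 13 mitochondrially encoded genes listed had positive fitted values, with a median log2 fold change of 1.11. Of these 1 was called by edgeR, 1 by limma-voom and 7 by DESeq2, and 9 had an unadjusted edgeR p under 0.05. The 8 hepatocyte markers summed to 163218 and 187770 CPM in PA and 178132 and 188554 CPM in WT, with 0 called by edgeR or limma-voom, 1 at an unadjusted edgeR p under 0.05 and 1 called by DESeq2. Of their fitted values 5 were positive and 3 negative. Alb was at 120638 and 147200 CPM in PA and 130577 and 149441 CPM in WT, Trf had a log2 fold change of 0.31 and Serpina3k one of -0.90 (edgeR adjusted p = 0.786 and 0.433). The DESeq2 call was Fabp1, at 3432 and 2426 CPM in PA and 7314 and 7524 CPM in WT (log2 fold change -1.34, edgeR adjusted p = 0.140). The 6 pancreas markers summed to 0.707 and 0.236 CPM in PA and 0.489 and 0.432 CPM in WT, of which Cela2a made up most, and 3 of the 6, Cpa1, Pnlip and Ctrb1, had 0 counts in every library. Summed endothelial markers were at 232 and 242 CPM in PA and 282 and 262 CPM in WT, with 0 of 12 called by edgeR, DESeq2 or limma-voom and 1 at an unadjusted edgeR p under 0.05. These are markers of liver endothelium in general and do not measure the central-vein cells. Clec4g, the most abundant, had 77.3 and 69.4 CPM in PA and 115 and 104 CPM in WT. Of the 12 fitted values 5 were positive and 7 negative. Kupffer cell and macrophage markers summed to 350 and 494 CPM in PA against 752 and 665 CPM in WT, with 0 of 10 called by edgeR or limma-voom, 5 at an unadjusted edgeR p under 0.05 and 2 called by DESeq2. Red blood cell markers summed to 11.9 and 16.8 CPM in PA and 88.5 and 47.5 CPM in WT, and Hbb-bs and Hbb-bt fell (edgeR adjusted p = 0.0256 and 0.0302). Lymphoid markers summed to 4.87 and 7.91 CPM in PA and 17.5 and 14.9 CPM in WT, and stellate cell markers to 477 and 465 CPM in PA and 451 and 466 CPM in WT. Dcn held most of the stellate sum, and of the 8 fitted values of that list 2 were positive and 6 negative. Cholangiocyte markers summed to 31.5 and 31.8 CPM in PA and 33.8 and 48.4 CPM in WT, and mesothelial markers to 10.8 and 5.49 CPM in PA and 6.98 and 6.72 CPM in WT. Spp1 held most of the cholangiocyte sum, at 24.2 and 26.9 CPM in PA and 30.5 and 45.3 CPM in WT. Of the 5 cholangiocyte markers tested, 4 had positive fitted values and 1 a negative one, with a median log2 fold change of 0.65. Immediate early genes summed to 196 and 119.8 CPM in PA and 109.7 and 82.5 CPM in WT. Of 15 tested 14 had positive fitted values and 1 a negative one. With edgeR, DESeq2 and limma-voom 0 were called, and 4 had an unadjusted edgeR p under 0.05, all higher in PA. Kidney markers stayed under 1 CPM in sum. The part of these differences in the values of the 10 genes was not tested.

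In 6 related gene lists edgeR called 0 genes, while DESeq2 made calls in 5 of them. Of 20 other pericentral genes 19 were tested, with 0 called by edgeR or limma-voom, 5 at an unadjusted edgeR p under 0.05 (4 higher, 1 lower in PA) and 2 called by DESeq2. Their median log2 fold change was -0.02. Gstm3, a glutathione S-transferase that is also a target of NRF2, had the smallest p of the list. Gstm3 had 211 and 95.5 CPM in PA livers against 35.4 and 21.9 CPM in WT livers (log2 fold change 2.42, edgeR adjusted p = 0.0622, DESeq2 adjusted p = 1.73e-07). In the fits without 1 library Gstm3 was at 1.74 (edgeR adjusted p = 0.0207, PA replicate 1 left out), 2.88 (0.00284, PA replicate 2), 2.80 (0.0143, WT replicate 1) and 2.12 (0.0544, WT replicate 2). Rgn, or regucalcin, the most abundant of the list, had 1917 and 1719 CPM in PA livers and 2709 and 2871 CPM in WT livers (edgeR adjusted p = 0.426). Fitted values were positive for 9 of the 19 and negative for 10.

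Of 18 feedback and common WNT targets 12 were tested; 0 were called by edgeR or limma-voom, 4 had an unadjusted edgeR p under 0.05 (2 higher, 2 lower) and DESeq2 called 1. That was Ccnd1, the G1 cyclin, with 66.7 and 64.2 CPM in PA livers against 119 and 107 CPM in WT livers (log2 fold change -0.79, edgeR adjusted p = 0.171). Tcf7, a TCF factor that is itself a target, was at 3.57 and 3.03 CPM in PA and 4.76 and 5.97 CPM in WT (edgeR adjusted p = 0.356). Ccnd1 and Tcf7 had lower values in PA, but of the 12 fitted values 9 were positive and 3 negative, with a median of 0.13. The 2 genes with higher values and an unadjusted edgeR p under 0.05 were Myc and Sox9, with log2 fold changes of 1.35 and 1.18 (edgeR adjusted p = 0.417 and 0.379). The Myc groups overlapped.

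Of 34 ligands, receptors and signalling components 33 were tested, with 0 called by edgeR, DESeq2 or limma-voom, 1 at an unadjusted edgeR p under 0.05 and a median log2 fold change of 0.13. Axin1, the constitutive partner of Axin2 in the destruction complex, had 13.0 and 12.8 CPM in PA livers and 18.2 and 17.0 CPM in WT livers (edgeR adjusted p = 0.420). The co-receptor Lrp5 had 57.2 and 40.5 CPM in PA livers against 37.8 and 22.7 CPM in WT livers (edgeR adjusted p = 0.428). Ctnnb1, which encodes beta-catenin, was at 222 and 252 CPM in PA and 284 and 260 CPM in WT (edgeR adjusted p = 0.793). Central-vein signals were looked up for their role after the values had been seen. Rspo3 was at 5.42 and 5.55 CPM in PA against 4.43 and 5.62 CPM in WT, Wnt2 at 3.14 and 1.88 CPM in PA against 3.33 and 2.71 CPM in WT, and Wnt9b at 1.18 and 0.572 CPM in PA against 0.587 and 0.314 CPM in WT. The groups overlapped for Rspo3, Wnt2 and Wnt9b.

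Genes of the opposite, periportal, zone showed larger fitted differences. All 22 listed genes were tested; edgeR and limma-voom called 0, 9 had an unadjusted edgeR p under 0.05 (5 higher, 4 lower in PA) and DESeq2 called 6. Their median absolute log2 fold change was 0.77, against 0.36 for the 10 pericentral genes; the difference between the lists was not tested. Etnppl, ethanolamine-phosphate phospho-lyase, had 208 and 185 CPM in PA livers against 91.7 and 66.0 CPM in WT livers (log2 fold change 1.32, edgeR adjusted p = 0.0808). Fgb, the fibrinogen beta chain, had 4713 and 3661 CPM in PA and 7797 and 6692 CPM in WT (-0.79, edgeR adjusted p = 0.363), and Dpt, dermatopontin, had 2.20 and 2.29 CPM in PA and 4.14 and 5.11 CPM in WT (-1.04, edgeR adjusted p = 0.180).

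The partners of Glul and Oat in glutamine, ornithine and ammonia handling gave 19 tested of 21, with 0 called by edgeR or limma-voom, 5 at an unadjusted edgeR p under 0.05, all higher, and 2 called by DESeq2. Those 2 were Prodh, proline dehydrogenase, and Gpt, alanine aminotransferase. Prodh had 309.7 and 303 CPM in PA livers against 112 and 138 CPM in WT livers (log2 fold change 1.296, edgeR adjusted p = 0.0690). Gpt had 294 and 296 CPM in PA livers against 149 and 150.0 CPM in WT livers (0.98, edgeR adjusted p = 0.124). The edgeR calls of Etnppl, Prodh and Gpt depended on the library left out: each was called without either PA library (adjusted p 0.0189 to 0.0432) and not called without either WT library (0.173 to 0.745). Slc38a3, a glutamine transporter, was at 779 and 1068 CPM in PA and 1029 and 1661 CPM in WT (edgeR adjusted p = 0.588).

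For Cyp1a2 the genes of the aryl hydrocarbon receptor pathway were set beside it. Of 13 listed genes 11 were tested, with 0 called by edgeR or limma-voom, 3 at an unadjusted edgeR p under 0.05, all higher, and 1, Nqo1, called by DESeq2. Cyp1a1, the close relative of Cyp1a2 and the classical target of the receptor, had 3.42 and 2.02 CPM in PA livers against 0.978 and 1.06 CPM in WT livers (log2 fold change 1.41, edgeR adjusted p = 0.188). With PA replicate 1 left out it was 0.99 (edgeR adjusted p = 0.238) and with PA replicate 2 left out 1.74 (0.0388); leaving out a WT library gave adjusted p-values of 0.603 and 0.391. Nqo1, a quinone reductase that NRF2 also induces, had 21.8 and 18.8 CPM in PA and 9.03 and 8.91 CPM in WT (1.18, edgeR adjusted p = 0.0586). With 1 library left out, the adjusted p of Nqo1 was 0.0458 (PA replicate 1), 0.0205 (PA replicate 2), 0.231 (WT replicate 1) and 0.195 (WT replicate 2). The third was the receptor gene Ahr, at 38.9 and 41.0 CPM in PA and 25.1 and 28.0 CPM in WT (0.59, edgeR adjusted p = 0.273). Ppara, the most abundant of the list, overlapped, at 53.7 and 63.6 CPM in PA and 55.1 and 94.5 CPM in WT. Of the 11 fitted values 8 were positive and 3 negative. Tiparp overlapped as well, at 8.72 and 8.58 CPM in PA and 6.03 and 12.0 CPM in WT (log2 fold change -0.06). Ahrr was too low to be tested, with 0 and 2 counts in PA livers against 3 and 9 counts in WT livers. The receptor's core letters GCGTG, searched on both strands, were not in the 300-base window of Cyp1a2 and were in 32.4% of all windows. Their absence says only that these letters were not in these 300 bases. Whether the receptor had a part in the values of Cyp1a2 was not tested.

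**Figure D5:**
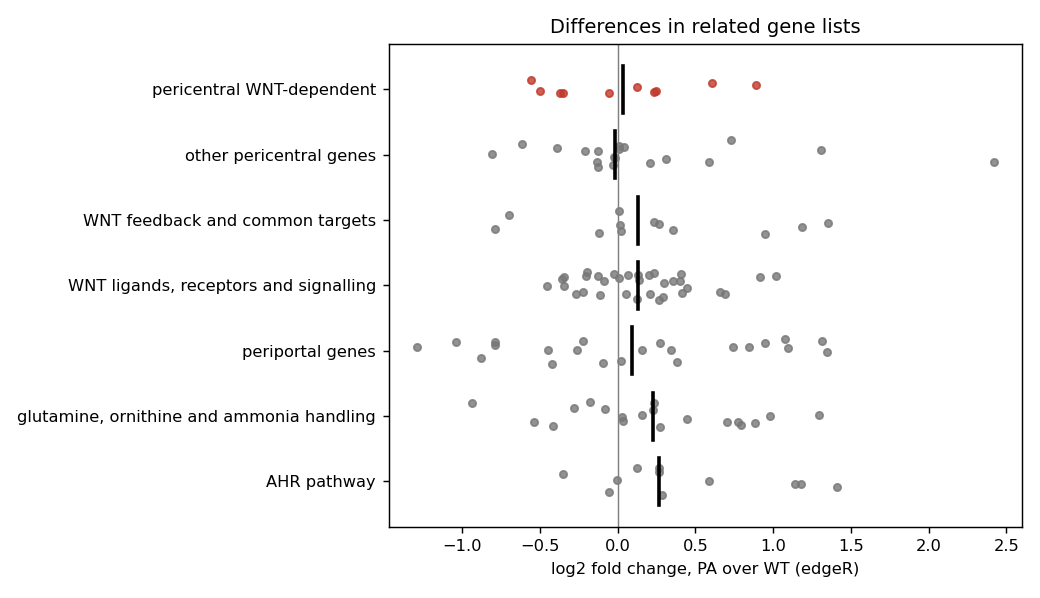
Log2 fold change of PA over WT for the 10 pericentral WNT-dependent genes (red) and the tested genes of 6 related lists (grey); each point is a gene, vertical bars are list medians, and vertical scatter within a list only separates points. The 10 genes lie between -0.56 and 0.89 around a median of 0.03, and the periportal genes between -1.29 and 1.34.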

How the data were processed

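Liver RNA of 2 PA and 2 WT mice was analysed, grouped by the sample titles; the design text calls the replicates biological. The authors deposited raw read counts per gene, and expected counts, TPM and FPKM from RSEM per the file headers; FPKM was not used. Per the submitters' processing notes the tools were STAR 2.7.6a and RSEM 1.3.3, with build GRCm38. The annotation release is not given in the sources used here. The opposite-strand column held 97.0 to 97.1% of stranded counts and was used. The 4 summary lines, 28.1 to 34.3% of reads, were left out. GENCODE M21 matched 55227 of 55487 identifiers.

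The test was edgeR 4.0.16 (R 4.3.3), quasi-likelihood, TMM, filterByExpr, prior count 0.125 and genotype as the only term, adjusted over all genes at 0.05. Standard errors are the log2 fold change over the square root of F, and the 95% intervals use them. RSEM counts were rounded when tested. Neither pair agreed within sampling noise (chi-square per degree of freedom 135 for PA and 46.3 for WT). Tests were checked on simulated counts with dispersions from the fitted trend, which can flatter them (3 simulations, 5.23% of calls false). Alternatives were DESeq2 1.42.0, limma-voom (limma 3.58.1), other counts, scaling and filters, a replicate block, and leaving out each library.

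The 10 genes and the lists were chosen with earlier results of these data known. All 10 are described; of each related list the 2 genes of smallest p and the most abundant are named (called genes first), and of marker lists up to the 3 most abundant. Ahr, Tiparp, Ahrr, Myc, Sox9, Wnt2, Wnt9b, Rspo3, Fabp1, Cpa1, Pnlip and Ctrb1 were named outside that rule after their values were seen. A gene that the rule names in the other pericentral list is not reported here.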

Additional observations from a re-analysis of the deposited data

How the results depend on the processing

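With replicate block, 126 genes were called higher and 192 lower over all genes, against 38 and 79 in the fit without it, and 0 of the 10 pericentral genes were called with either, while the block gave 1 call each in the other pericentral, periportal, ammonia and aryl hydrocarbon receptor lists. Same-numbered libraries had a correlation of deviations of -0.09. With 2 libraries per group this is 1 value, and it cannot show whether samples of the same number were handled together. DESeq2 called 186 higher and 256 lower, and the fit with no filter on low counts 414 and 488, with 1 of the 10 genes (Cyp1a2) called higher. In the fits without 1 library, 50 to 239 genes were called higher and 105 to 261 lower, 0 to 1 of the 10 genes was called higher, and 3 to 5 had a higher value in PA. The median log2 fold change of the 10 genes, 0.03, was -0.17 with RSEM expected counts and -0.27 to 0.021 without 1 library. Signs turned for genes near 0: Rhbg was -0.46 with RSEM counts, -0.030 with limma-voom and -0.84 to 0.66 without 1 library, Glul -0.24 to 0.12, Cyp2e1 -0.051 to 0.59 and Tbx3 -0.17 to 0.81. The cause was not tested. Of 120 values of single genes over 12 alternatives, 110 kept their sign and their side of the threshold. The fit with none of these changes called 0 of the 10 genes, so a value kept its side by staying uncalled. Size was not part of this count. A fit without 1 library takes the spread of the lone mouse from the other genotype. In the STAR counts Rhbg rests on 6 to 20 counts per library.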
